A study of Mus musculus with 9 samples.

Results

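Brown adipose tissue (BAT) of mice that carry loxP-flanked (floxed) Setdb1 alleles was compared with and without Adipoq-Cre, a recombinase driven by an adipocyte promoter. The comparison used 4 of the 9 RNA-seq libraries of the series: 2 control libraries (Setdb1 fl/fl; Adipoq-Cre-) and 2 adipocyte knockout libraries, termed AKO (Setdb1 fl/fl; Adipoq-Cre+). Of 22721 genes in the table, 14466 reached at least 10 normalised counts in 2 or more of the 4 libraries and were tested. The remaining 5 libraries are of cultured cells and are used only as a description near the end. Both groups carry the floxed alleles, no library holds Adipoq-Cre without them, and Cre acts in adipocytes, so the other cells of the tissue keep Setdb1 in both groups. The strain, age, sex, housing and the prefix TN_CE of the library names are not explained in the labels. The labels number the libraries but do not say that each came from a separate animal, so p-values reflect the spread between libraries alone, which may be technical.

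SETDB1 is a methyltransferase that places trimethyl marks on histone H3 at lysine 9, where they keep chromatin silent. KRAB zinc finger proteins bring it to DNA through TRIM28, ATF7IP holds it in the nucleus, and the HUSH complex, RESF1 and the methyl-CpG binding protein MBD1 are further partners. Its known targets in other tissues are endogenous retroviruses, germ line genes and clustered protocadherins. Brown fat burns fatty acids to make heat through the uncoupling protein UCP1, and its lipid genes are among the highest expressed in the tissue.

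Library totals lay between 15979479 and 16940622 reads, mitochondrial genes took 12.68% to 16.59% of them, and the 10 highest genes 17.2% to 19.7%. Neither measure split by group. Brown adipocyte and general adipocyte markers were present at high levels in all 4 libraries: their summed normalised counts were 175939 to 188482 and 267865 to 267894 in control, and 133064 to 203547 and 275904 to 343522 in AKO, respectively. Setdb1 itself was at 455 and 473 normalised counts in control libraries 1 and 2 and at 156 and 191 in AKO libraries 1 and 2. Both AKO libraries lay below both controls, with a fitted log2 change of -1.42 ± 0.19 (SE, n = 2 against 2, adjusted p = 0.0216, limma). Because the RNA is of whole tissue, fewer cells of a type and less RNA per cell cannot be told apart, here or in any result that follows. A normalised count is a read count times 1 factor per library, and log2 changes are on the scale of log2(normalised count + 1), which understates changes of genes with few reads.

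Single libraries stood apart in some genes. Skeletal muscle markers summed to 838 in control library 2 and to 67.0 to 151 in the other libraries. Among 9424 genes with a mean of at least 100, 23 were 4-fold or more apart between the AKO libraries and 14 between the controls, and none of these was called. On chromosome 17, 5 genes were this far apart, all lower in AKO library 2. The ribosomal gene Rps18 was at 5335 and 2732 in control and 3156 and 163 in AKO, and the class I gene H2-T22 at 2164 and 717 against 2715 and 151. Over all tested genes the median absolute log2 difference was 0.22 between the controls and 0.27 between the AKO libraries.

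In the AKO libraries 145 genes rose and 98 fell at a false discovery rate of 0.05 (limma, Benjamini-Hochberg), which is 1.00% and 0.677% of the genes tested and 1.68% together. With edgeR 148 rose (1.02%) and 102 fell (0.705%). The median log2 change was 2.19 among the risers and -1.37 among the fallers, against 0.01 over all genes. Of the risers 131 changed at least 2-fold, 78 at least 4-fold and 47 at least 8-fold, and of the fallers 82, 22 and 8. Among the 559 tested genes with a control mean under 10 normalised counts, 28 rose (5.01%) and 0 fell; genes this low could pass the filter only through high AKO values, so this share is a description. Among the 2721 genes with a control mean of 1000 or more, 12 rose (0.441%) and 31 fell (1.14%). The risers together took 0.364% and 0.33% of reads in control and 1.26% and 1.4% in AKO, and the fallers 0.801% and 0.769% in control and 0.267% and 0.263% in AKO. Leaving out 1 library at a time reduced the number of calls in both directions, most without either control library. Not all genes called in these smaller fits were among the 145 risers and 98 fallers of the full fit. The genes called in each of these fits were Ermp1, Tusc3, Ptgds, Mbd1, Resf1, Pcdh19, Lrrc8b, Tnfrsf23, Eci2, Elovl3, Sycp3, Mlf1, Ube2ql1 and Ighm, 14 in all; no faller was among them, and every other called gene named here lost its call in at least 1 of these fits. Setdb1 lost it without either control library.

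**Figure D1:**
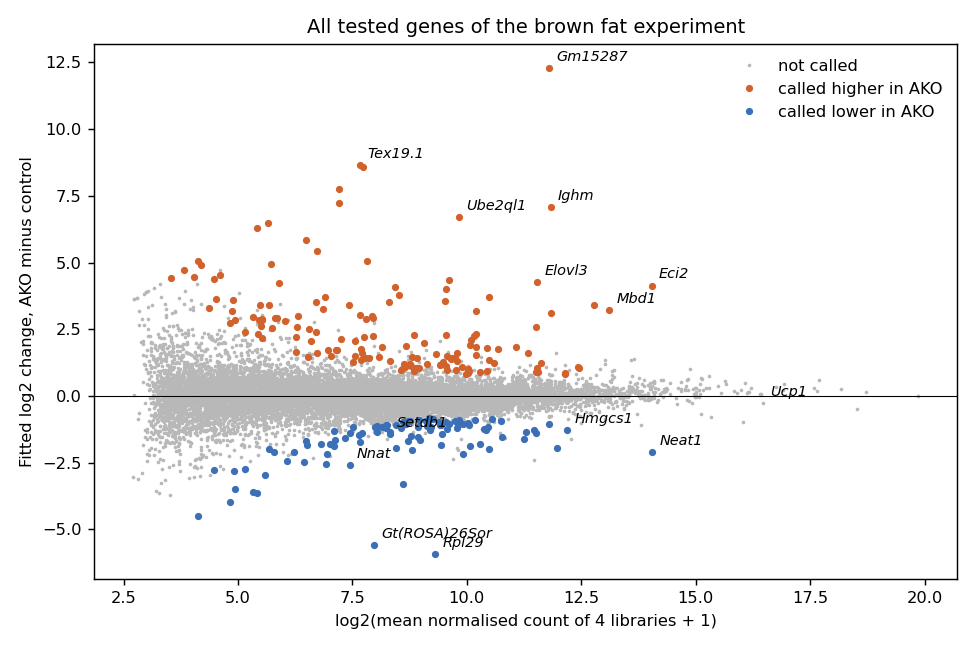
Fitted log2 change (AKO minus control, vertical axis) against log2 of the mean normalised count plus 1 over the 4 libraries (horizontal axis), 1 point a gene for 14466 genes. The 145 orange points are genes called higher and reach the highest changes at low to middle abundance, and the 98 blue points are genes called lower, mostly at middle to high abundance.

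Genes without a read in control tissue were read in the AKO libraries. With at least 20 reads in each AKO library and 0 in both controls there were 5 genes, and the reverse pattern was found in 0 genes. Tex19.1, a germ line gene that protects gametes from retrotransposons, had 0 reads in both controls and 413 and 368 in AKO libraries 1 and 2, at least 278-fold higher when the controls are set to a floor of 3 reads in total. Bglap3, a gene related to the bone hormone osteocalcin, had 0 reads in both controls and 239 and 578 in AKO, at least 291-fold higher. Mlana, a melanosome protein of pigment cells, had 0 and then 54 and 139 reads, at least 68.7-fold higher. The lincRNA Gm4316 (52 and 110 AKO reads, at least 57.6-fold) and the antisense transcript A230005M16Rik (37 and 27 AKO reads, at least 22.8-fold) complete the set. These genes were chosen for this pattern, so their values are a description. The antisense transcript Gm15287, at chr13:111725517-111735124 on the plus strand (GRCm38), had 0 reads and 1 read in control and 6224 and 7495 in AKO (adjusted p = 4.75e-05, limma). Whether counting used the strand is not stated, so reads of antisense and overlapping genes cannot be assigned to a strand.

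The promoters of 5 of the strongest protein-coding risers are shown because DNA methylation at CG dinucleotides is a second layer of silencing at many SETDB1 targets, and they let the CG content of the start sites be read directly. Each line gives the 250 bases before the RefSeq start of the gene (GRCm38.p6), 5′ to 3′ on the gene's strand, with every CG dinucleotide in capitals. Tex19.1 lies at chr11:121145893-121146142 (plus strand), Bglap3 at chr3:88372742-88372991 (minus), Ube2ql1 at chr13:69739898-69740147 (minus), Tcfl5 at chr2:180642692-180642941 (minus) and Mlf1 at chr3:67373847-67374096 (plus).
Tex19.1: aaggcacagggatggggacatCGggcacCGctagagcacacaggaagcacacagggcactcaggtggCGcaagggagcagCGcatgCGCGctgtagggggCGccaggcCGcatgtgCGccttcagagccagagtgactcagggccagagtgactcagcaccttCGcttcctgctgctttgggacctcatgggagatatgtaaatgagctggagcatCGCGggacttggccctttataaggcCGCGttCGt
Bglap3: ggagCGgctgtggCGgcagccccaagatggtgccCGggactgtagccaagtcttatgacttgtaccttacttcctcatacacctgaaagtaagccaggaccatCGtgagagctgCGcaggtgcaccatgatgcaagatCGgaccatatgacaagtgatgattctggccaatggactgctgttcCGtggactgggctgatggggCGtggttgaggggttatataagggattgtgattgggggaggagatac
Ube2ql1: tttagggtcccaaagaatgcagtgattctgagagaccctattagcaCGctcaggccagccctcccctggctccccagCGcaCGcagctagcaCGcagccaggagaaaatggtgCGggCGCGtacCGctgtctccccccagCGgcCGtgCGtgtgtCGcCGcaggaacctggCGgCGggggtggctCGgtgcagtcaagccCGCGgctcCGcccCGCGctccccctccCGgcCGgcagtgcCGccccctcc
Tcfl5: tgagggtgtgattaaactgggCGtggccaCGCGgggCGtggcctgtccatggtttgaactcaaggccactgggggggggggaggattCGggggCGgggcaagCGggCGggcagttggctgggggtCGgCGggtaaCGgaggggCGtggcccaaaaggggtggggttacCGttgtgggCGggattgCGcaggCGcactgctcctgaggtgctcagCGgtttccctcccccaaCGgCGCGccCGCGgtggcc
Mlf1: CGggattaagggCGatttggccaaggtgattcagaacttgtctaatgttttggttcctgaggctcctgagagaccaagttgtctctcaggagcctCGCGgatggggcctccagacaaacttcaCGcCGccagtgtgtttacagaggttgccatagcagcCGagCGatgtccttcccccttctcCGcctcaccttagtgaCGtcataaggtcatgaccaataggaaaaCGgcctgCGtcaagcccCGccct

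The Tex19.1 promoter held 15 CG dinucleotides, Bglap3 8, Ube2ql1 24, Tcfl5 22 and Mlf1 13, where the median was 6 over all 32851 entries of the RefSeq promoter table and 16 over the 10123 tested protein-coding genes with an entry. Ube2ql1 and Tcfl5 lay above both medians, and Tex19.1, Bglap3 and Mlf1 between them. The E-box CACGTG (6.02% of all entries and 8.49% of those tested genes), the E2F-type motif GGCGGGAA (1.86% and 3.63%) and the TATA-box motif TATAAA (12.4% and 6.5%) were searched on both strands of the same 250 bases. TATAAA was found in the Tex19.1 promoter only on the strand opposite the gene, and the other 4 promoters held none of these exact strings. Close variants, such as TATATAAG in the Bglap3 promoter, were not counted. Promoter composition was not compared between all risers and all genes, because the match fell short of the share set for such a check: only 79.2% of the protein-coding risers and 79.6% of the tested protein-coding genes matched an entry.

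Of 17 tested genes of a list of germ line and meiosis genes 4 rose and 1 fell (1.00% and 0.677% of all genes). The median log2 change was 0.70 (all genes 0.01), which stays the same with Tex19.1 at its lower bound. Tex19.1, Tcfl5, Sycp2, Slc25a31, Stag3 and Msh5 reached the filter only with their AKO values, so the counts and the median are a description. Sycp3, a core protein of the synaptonemal complex, was at 68.8 and 76.1 normalised counts in control and 1365 and 1597 in AKO. Sycp2, its axis partner, was at 11.01 and 6.09 in control and 71.0 and 69.1 in AKO. Tcfl5, a basic helix-loop-helix factor of spermatocytes, had 0 and 8 control reads and 166 and 168 AKO reads. Neither group of libraries overlapped the other in these 3 genes, with log2 changes of 4.33 ± 0.18 for Sycp3, 2.94 ± 0.44 for Sycp2 and 5.84 ± 0.93 for Tcfl5 (SE, n = 2 against 2, limma adjusted p = 1.16e-04, 0.0271 and 0.035). Tex19.1 is the fourth riser, and Gapdhs, the sperm glycolytic enzyme, was the faller (60.5 and 61.9 in control, 8.23 and 8.25 in AKO, adjusted p = 0.0255, limma). Other members were near silence: the meiotic cohesin Stag3 had 5 and 1 control reads and 14 and 14 AKO reads (adjusted p = 0.193, limma). A further 23 members had rows but did not reach the filter, with at most 14 reads in any library. They included Ddx4 and Dazl, markers of germ cells, at most 7 and 3 reads. Mlf1, a myeloid leukaemia factor gene, is no member of the list; it stood at 11.9 and 12.2 in control and 468 and 408 in AKO (adjusted p = 2.57e-04, limma).

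Ighm and Mlana are markers of other cell types and rose in the AKO libraries. Ighm, the constant region of immunoglobulin M, was at 55.9 and 46.7 normalised counts in control and 5384 and 9086 in AKO, a log2 change of 7.07 ± 0.26 (SE, n = 2 against 2, adjusted p = 1.05e-04, limma). Both AKO libraries exceeded both controls by more than the spread within either group. The immunoglobulin light chain Igkc was at 229 and 107 in control and 193 and 116 in AKO, and the joining chain Jchain at 76.1 and 28.4 against 108 and 46.4, with overlapping groups. Of 13 markers of B and plasma cells 3 passed the filter. Among the rest, Cd79a had 10 and 19 control reads and 4 and 5 AKO reads, and Ms4a1 1 and 5 against 2 and 2. These B cell markers were near 0 in all 4 libraries. Summed over the markers, the list read 242 to 392 in control and 5722 to 9277 in AKO, of which Ighm held most in AKO. Among melanocyte markers, the transcription factor Mitf was at 57.8 and 69.0 in control and 91.6 and 128 in AKO, both AKO libraries above both controls (adjusted p = 0.232, limma). Pmel was at 6.4 and 14.2 against 12.3 and 4.1, and Dct had 3 to 8 reads per library. Sox10 was at 54.1 and 49.7 in control and 79.2 and 23.7 in AKO, with overlapping groups. Of the 4 tested markers Mlana was called. In limma 2, Mlana among them, were higher at an unadjusted p below 0.05 (8.64% of all genes). The summed level of the list was 122 to 137 in control, and 249 and 302 in AKO libraries 1 and 2. Mlana, chosen for its lack of control reads, held 55.6 and 143 of these AKO sums. The part of these cell types in the results was not tested.

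Among known partners of SETDB1, Resf1 and Mbd1 rose. Of 23 tested partners and readers of SETDB1 2 rose and 0 fell (1.00% and 0.677% of all genes), with a median log2 change of 0.12. Resf1, which cooperates with SETDB1 in retrovirus silencing, was at 1000 and 1469 in control and 12727 and 12933 in AKO. Mbd1 was at 1831 and 1629 in control and 15729 and 16285 in AKO. These were among the largest gains in normalised counts of any gene, with log2 changes of 3.40 ± 0.20 and 3.21 ± 0.15 (SE, n = 2 against 2, limma adjusted p = 5.22e-04 and 2.28e-04). Atf7ip was at 202 and 228 in control and 405 and 540 in AKO, both AKO libraries above both controls, and missed the threshold with limma (adjusted p = 0.0503) but not with edgeR (adjusted p = 0.0473), which called 3 members of the list. The corepressor Trim28 was at 1447 and 1721 in control and 1031 and 1111 in AKO (adjusted p = 0.134, limma). Other writers and erasers of H3 lysine 9 and DNA methylation (22 tested, median -0.07) and genes of the PRC1.6 and PRC2 silencers (20 tested, median -0.16) had 0 calls in either direction. At an unadjusted p below 0.05 in limma, 1 of the first list was higher and 4 lower, and 0 and 3 of the second. Over all genes 8.64% were higher and 9.08% lower at this threshold, and edgeR also called 0 of both lists.

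**Figure D2:**
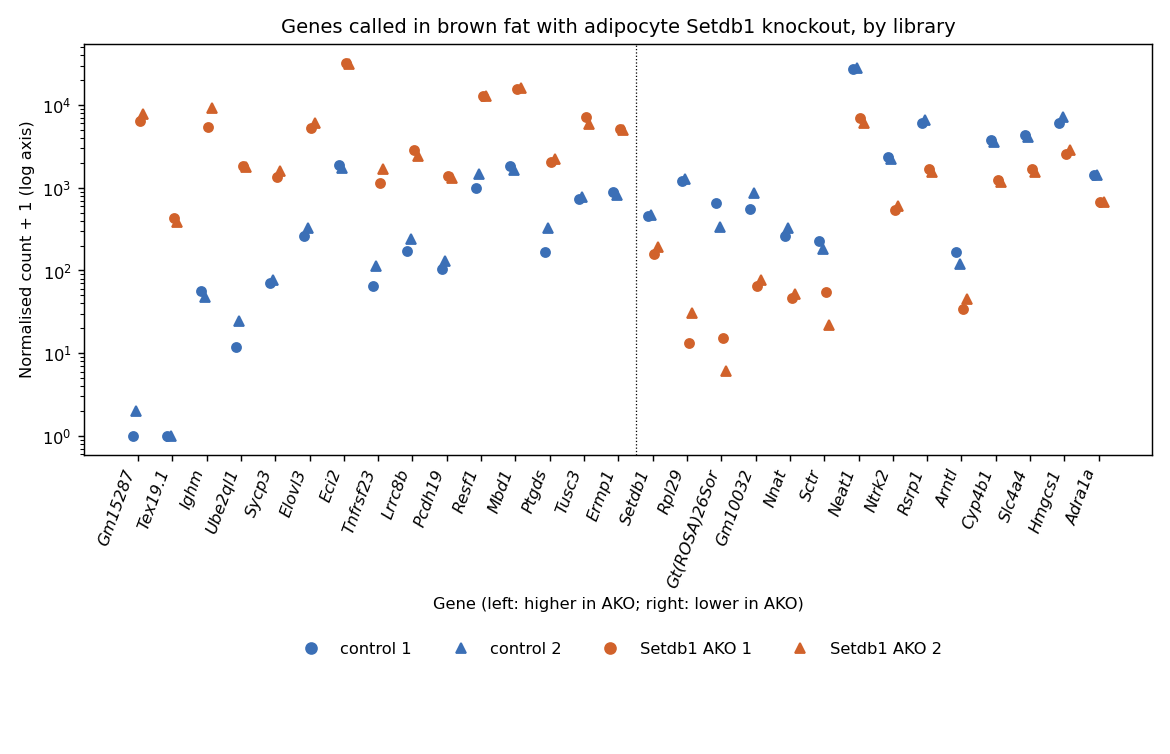
Normalised count plus 1 (log axis) of 15 genes called higher and 14 called lower, 1 symbol a library, circles for replicate 1 and triangles for replicate 2. In each gene shown the orange AKO symbols lie wholly above or wholly below the blue control symbols, as for Eci2 at 1719 to 1909 in control and 31105 to 32560 in AKO.

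Genes of peroxisomal fatty acid handling rose. Of 29 tested genes of very long chain fatty acid elongation and peroxisomal oxidation 4 rose and 0 fell (1.00% and 0.677% of all genes). The median log2 change was 0.28. Both AKO libraries lay above both controls in 16 members and below in 1 (25.1% and 24.9% of all genes). Eci2, a peroxisomal enoyl-CoA isomerase, was at 1909 and 1719 in control and 32560 and 31105 in AKO, the largest gain in normalised counts of any called gene. Its relative Eci3, which shares sequence with it and could share reads, was at 253 and 251 in control and 263 and 187 in AKO. Elovl3, an elongase that lengthens fatty acids beyond the usual chain, was at 259 and 327 in control and 5300 and 6004 in AKO. Acaa1b, a peroxisomal thiolase, was at 557 and 473 against 1757 and 1931, and Abcd2, a peroxisomal importer of very long chain acyl-CoA, at 575 and 440 against 1142 and 1360. In these 4 risers the AKO libraries agreed closely and did not overlap control, with log2 changes of 4.13 ± 0.16 for Eci2, 4.27 ± 0.17 for Elovl3, 1.84 ± 0.16 for Acaa1b and 1.31 ± 0.19 for Abcd2 (SE, n = 2 against 2, limma adjusted p = 1.05e-04, 1.05e-04, 0.00337 and 0.0253).

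Genes of fatty acid and triglyceride synthesis gave no call. Of 23 tested 0 were called by limma or edgeR, and the median log2 change was 0.58. In limma 10 were higher and 0 lower at an unadjusted p below 0.05 (8.64% and 9.08% of all genes). A positive log2 change was seen in 19 (50.6% of all genes). Both AKO libraries lay above both controls in 11 and below both in 1 (25.1% and 24.9% of all genes). The AKO libraries differed from each other in the core enzymes: fatty acid synthase Fasn was at 198204 and 126819 in control and 155411 and 362515 in AKO, and Acly at 27306 and 12519 against 24300 and 56793. The desaturase Scd1 was at 463699 and 379961 against 204244 and 450374. The spread between AKO libraries 1 and 2 in these 3 genes exceeded the difference between the group means. Srebf1, the transcription factor of lipogenesis, was steadier, at 3070 and 2470 in control and 4954 and 4476 in AKO (adjusted p = 0.0772, limma). Of 24 mitochondrial fatty acid oxidation genes 1 rose (1.00% of all genes), with a median of 0.22. It was the acyl-CoA synthetase Acsl5 (3448 and 3073 against 6043 and 5632, adjusted p = 0.0496 with limma and 0.0585 with edgeR). Slc27a1, a fatty acid transporter, is outside these lists and was at 4130 and 3174 against 7471 and 7661 (adjusted p = 0.0388, limma). Fabp5, a fatty acid binding protein, was at 1071 and 818 in control and 3065 and 3657 in AKO, and G0s2, an inhibitor of the triglyceride lipase ATGL, at 1919 and 2273 against 4113 and 3779 (limma adjusted p = 0.0066 and 0.0424). With the faller Nnat they were the 3 called genes of 31 general adipocyte genes (1.68% of all genes were called), whose median was 0.09.

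In the thermogenic programme 3 of 32 tested genes rose and 0 fell (1.00% and 0.677% of all genes), with a median log2 change of 0.08. Beside Elovl3 these were Bmp8b, a secreted BMP of brown fat (34.9 and 61.9 in control, 472 and 902 in AKO, log2 change 3.78 ± 0.38), and Acot11, a thioesterase that hydrolyses acyl-CoA (1352 and 1121 against 2907 and 4946, log2 change 1.62 ± 0.26; SE, n = 2 against 2, limma adjusted p = 0.0066 and 0.0327). Ucp1 was at 107183 and 88048 in control and 104610 and 62875 in AKO, with overlapping groups. Dio2 was at 18383 and 19932 against 12534 and 6460 (adjusted p = 0.135, limma). Both AKO libraries lay above both controls in 10 members of the list and below both in 6 (25.1% and 24.9% of all genes). In limma 6 members were higher and 5 lower at an unadjusted p below 0.05 (8.64% and 9.08% of all genes). The list sum was 249738 to 265403 in control, and 296114 and 218804 in AKO libraries 1 and 2. Among 37 tested receptors of thermogenic and metabolic hormones 0 rose and 2 fell (1.00% and 0.677% of all genes), with a median of 0.05. Adra1a, an alpha-1 adrenergic receptor, was at 1443 and 1436 in control and 670 and 680 in AKO, groups far apart for their spread, with a log2 change of -1.09 ± 0.14 (SE, n = 2 against 2, adjusted p = 0.0199, limma). The other faller was the secretin receptor Sctr (226 and 182 against 54.5 and 20.6, adjusted p = 0.0441, limma). The beta-3 receptor Adrb3 was at 2080 and 2041 in control and 1755 and 1320 in AKO (adjusted p = 0.258, limma). Of 13 tested creatine and calcium cycling genes 1 rose (1.00% of all genes). It was the calcium release channel Ryr2, at 7.34 and 8.12 in control and 74.1 and 112 in AKO (adjusted p = 0.0126, limma). Ryr2 passed the filter only through AKO values.

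**Figure D3:**
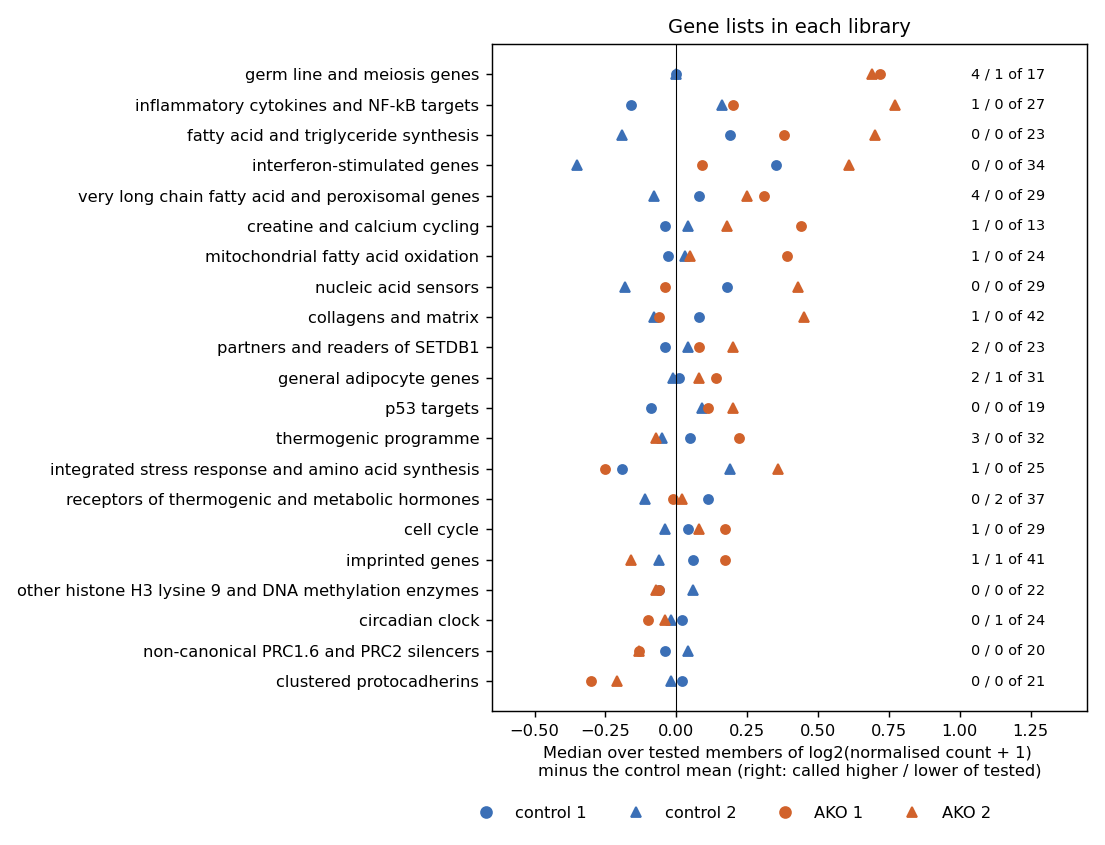
For each of 21 gene lists, the median over its tested members of log2(normalised count + 1) minus the mean of the 2 controls, shown for each library, with the counts of members called higher and lower at the right. The control symbols mirror each other about 0 by construction. The germ line list lies at 0.72 and 0.69 in AKO, but some of its members passed the filter only through AKO values. For the interferon-stimulated genes the AKO values, 0.09 and 0.61, straddle control library 1 at 0.35.

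Other risers with large gains had varied functions. Tusc3, a subunit of the oligosaccharyltransferase, was at 725 and 774 in control and 7115 and 5939 in AKO. Ermp1, an endoplasmic reticulum metallopeptidase, was at 878 and 815 in control and 5075 and 4952 in AKO. Lrrc8b, a subunit of the volume-regulated anion channel, was at 171 and 240 against 2888 and 2442. None of these groups overlapped, with log2 changes of 3.12 ± 0.16, 2.57 ± 0.14 and 3.71 ± 0.20 (SE, n = 2 against 2, limma adjusted p = 2.28e-04, 3.17e-04 and 3.17e-04). Pcdh19, a non-clustered protocadherin, was at 103 and 128 in control and 1375 and 1329 in AKO. Ptgds, the lipocalin-type prostaglandin D synthase, was at 164 and 322 against 2028 and 2214. Ube2ql1, a ubiquitin-conjugating enzyme homologue, was at 11.01 and 23.3 against 1809 and 1778. These 3 genes were called in each leave-one-out fit. Among smaller gains, the class I gene H2-Q10 was at 3782 and 3281 in control and 6541 and 8350 in AKO, a member of a family whose reads could be shared. The secreted glycoprotein Mfge8 was at 2978 and 3368 against 5813 and 5829 (limma adjusted p = 0.0414 for H2-Q10 and 0.0427 for Mfge8).

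Low-expressed risers added receptors and enzymes of other tissues. The decoy TRAIL receptors Tnfrsf22 and Tnfrsf23, which are closely related neighbours whose reads could be shared, were at 34.9 and 36.5 and at 64.2 and 112 in control, and at 450 and 854 and at 1140 and 1665 in AKO. Cyp2b10, a drug-metabolising cytochrome of the liver with close relatives, was at 2.75 and 8.12 against 96.7 and 126. The sialyltransferase St6galnac5 was at 19.3 and 11.2 against 130 and 314, and the class II phosphoinositide kinase Pik3c2g at 11.01 and 22.3 against 166 and 216. AKO library 2 was the higher in each of these genes. Tmem132b was at 36.7 and 55.8 against 352 and 812, and Bmyc, a Myc family gene, at 32.1 and 25.4 against 281 and 348. Log2 changes of the 7 genes lay between 3.41 for Bmyc and 4.25 for Cyp2b10.

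Among the fallers with the largest losses, Neat1, the long non-coding RNA that builds paraspeckles, was at 27362 and 27773 in control and 6911 and 6061 in AKO, the largest loss of normalised counts. Rsrp1, an arginine- and serine-rich protein, was at 6100 and 6634 against 1705 and 1567. Ntrk2, the receptor of brain-derived neurotrophic factor, was at 2352 and 2207 against 544 and 604. These groups were well apart, with log2 changes of -2.09 ± 0.18, -1.96 ± 0.15 and -1.99 ± 0.15 (SE, n = 2 against 2, limma adjusted p = 0.00318, 0.00172 and 0.00172). The fatty acid hydroxylase Cyp4b1 was at 3729 and 3619 in control and 1234 and 1176 in AKO, and the bicarbonate cotransporter Slc4a4 at 4285 and 4158 against 1707 and 1537. Hmgcs1, the cytosolic HMG-CoA synthase of sterol synthesis, was at 6025 and 7219 against 2565 and 2896. Slc25a42, the mitochondrial carrier of coenzyme A, was at 4384 and 3598 against 1917 and 1433. Both AKO libraries lay below both controls in each. Also lower were 3 further abundant genes: the Golgi ceramidase Acer2 (3113 and 2131 against 805 and 971), the glycogen-targeting subunit Ppp1r3c (2410 and 1513 against 504 and 597) and the alpha-tubulin Tuba4a (3775 and 3321 against 1787 and 1100; limma adjusted p = 0.0231, 0.02 and 0.0457). Fam117a was at 4700 and 4964 against 2458 and 2192. Among less abundant fallers were Cntfr, the ciliary neurotrophic factor receptor (1354 and 1996 against 567 and 360), the chromatin reader Ing1 (1290 and 887 against 326 and 281), Fam222a (940 and 504 against 183 and 156) and Utp14b (648 and 474 against 150 and 133). Spag4, a SUN-domain protein, was at 138 and 104 against 29.8 and 24.8, and the release factor Gspt2 at 93.6 and 83.2 against 25.7 and 15.5.

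Of 24 tested circadian clock genes 1 fell and 0 rose (0.677% and 1.00% of all genes), with a median log2 change of -0.13. It was Arntl, which encodes the clock activator BMAL1, at 164 and 120 in control and 32.9 and 44.4 in AKO, with a log2 change of -1.85 ± 0.31 (SE, n = 2 against 2, adjusted p = 0.0384, limma). Its partner Clock was at 797 and 678 in control and 561 and 607 in AKO, and the BMAL1 target Nr1d1 at 2132 and 1137 against 544 and 1558 (limma adjusted p = 0.344 and 0.469). The time of day of tissue collection is not given in the labels. Of 41 imprinted genes 1 rose, Nap1l5 (109 and 77.1 against 331 and 301, adjusted p = 0.0226, limma), and 1 fell, Nnat, with a median of -0.04. Over all genes 1.00% rose and 0.677% fell. The imprinted non-coding RNA H19 was at 11.9 and 8.12 in control and 54.5 and 49.5 in AKO and missed the threshold (adjusted p = 0.0503, limma). Of 21 tested clustered protocadherins, known SETDB1 targets in neurons, 0 were called in either direction by limma or edgeR. In limma 5 were higher and 4 lower at an unadjusted p below 0.05 (8.64% and 9.08% of all genes). Their highest member, Pcdhgc3, was at 300 and 464 in control and 248 and 216 in AKO (adjusted p = 0.208, limma).

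Zinc finger genes changed in both directions. Of 318 tested protein-coding genes with a Zfp symbol, a set chosen after values were seen, 10 rose (3.14%) and 7 fell (2.2%). Among all tested protein-coding genes 0.982% rose and 0.692% fell. The median of the set was -0.11. The risers Zfp97, Zfp992 and Zfp976 passed the filter only through AKO values, so these shares are a description. Zfp445, a KRAB protein that protects imprints, was at 698 and 552 in control and 2093 and 2223 in AKO. Zfp970 was at 76.1 and 72.0 against 451 and 260, and Zfp97 at 0.92 and 1.01 against 31.9 and 50.5. These groups did not overlap. The largest faller by log2 change was Zfp691, at 277 and 301 in control and 82.3 and 130 in AKO. Many Zfp genes are close copies of each other, so reads may be shared between them.

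Called genes lay beside each other in the genome. Of the 145 risers 25 (17.2%) had another riser with a gap of at most 100 kb between the gene bodies, in 12 groups, where 3.3% of the tested genes had a riser this near. Of the 98 fallers 13 (13.3%) had another faller within that gap, in 6 groups, against 3.71%. Among risers the gene bodies overlap in A230005M16Rik and Bmyc, Dlec1 and Acaa1b, Herc3 and Nap1l5, and Lamb3 and G0s2. Among fallers they overlap in Acsl3 and Utp14b. Whether reads were shared within these pairs was not tested. On chromosome 13 Mier3 rose beside Gm15287, its start 44.5 kb away, at 430 and 495 in control and 1315 and 1171 in AKO. On chromosome 3 the start of Paqr6 lay 8.2 kb from that of Bglap3, and it rose, at 39.4 and 33.5 against 181 and 130. On chromosome 19 the start of Ermp1 lay 49.5 kb from that of Mlana, and on chromosome 7 that of Tnfrsf22 36.2 kb from Tnfrsf23. On chromosome 18 Mbd1, Cfap53 and Myo5b rose together: Cfap53, a cilia protein, had 3 and 0 control reads and 244 and 322 AKO reads, and Myo5b was at 850 and 761 in control and 1843 and 2252 in AKO. Of the other tested genes within 500 kb of Cfap53 (3), Gm15287 (3), Mlana (10) and Tnfrsf22 (9), 0 were called. Around Bglap3, apart from Paqr6, 1 of 35 others was called, Rrnad1, which fell. Around A230005M16Rik, apart from Bmyc, 1 of 30 was called, Ptgds, which rose.

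**Figure D4:**
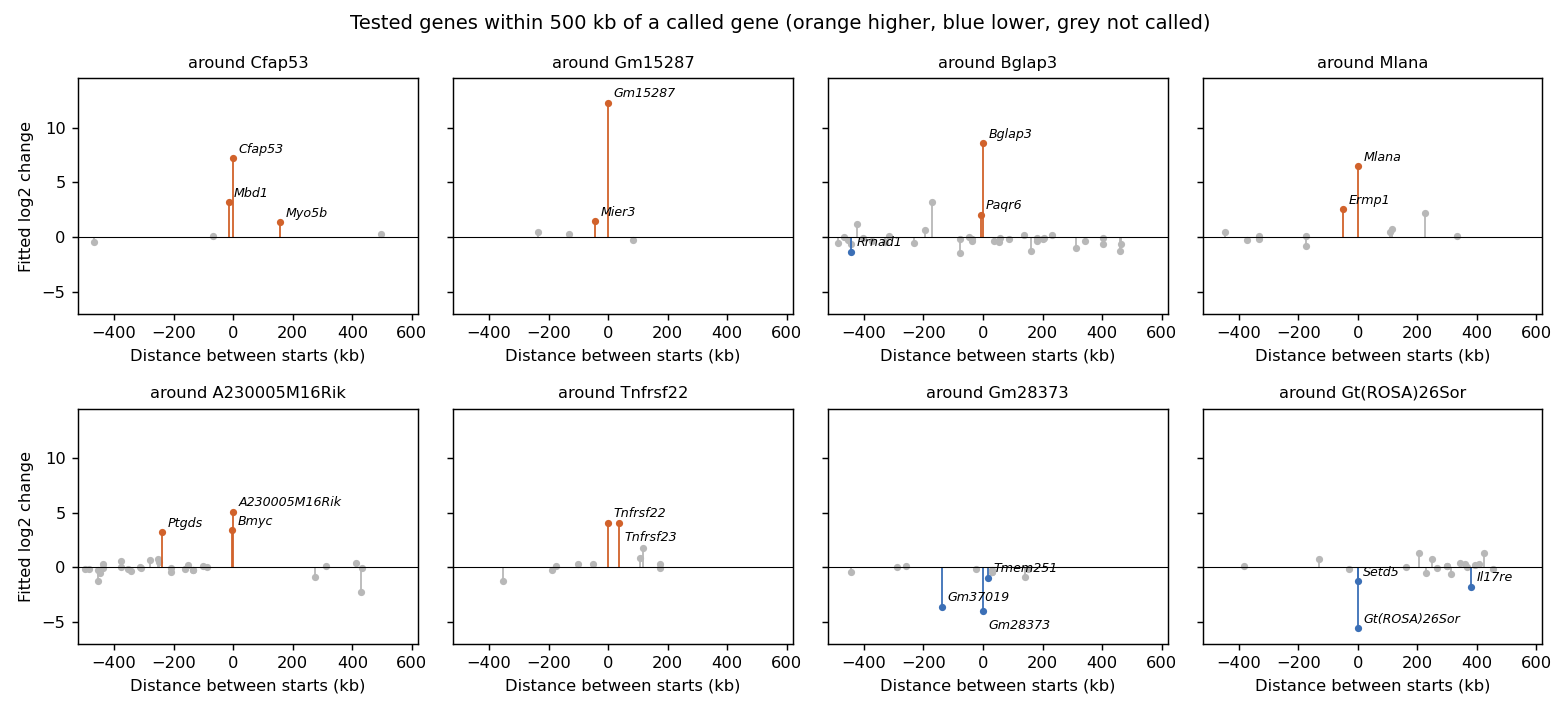
Fitted log2 change of each tested gene (vertical axis) against the distance in kb between its start and that of the gene named above the panel, for 8 called genes. The called genes stand at or near 0 kb and most of the grey genes around them lie near 0; around Cfap53 the other 3 tested genes lie between -0.46 and 0.30.

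At the Rosa26 locus a pair of neighbours that start at the same place on opposite strands fell. Gt(ROSA)26Sor, the non-coding transcript of the locus at chr6:113067428-113077333, was at 647 and 335 in control and 14.4 and 5.16 in AKO, with a log2 change of -5.58 ± 0.51 (SE, n = 2 against 2, adjusted p = 0.0041, limma). Setd5, a chromatin protein, was at 2006 and 1855 in control and 780 and 801 in AKO (log2 change -1.29 ± 0.14, adjusted p = 0.0101, limma). Il17re, an interleukin-17 receptor subunit whose start lies 381.2 kb away, was at 194 and 207 against 57.6 and 55.7. The other 18 tested genes within 500 kb were not called. The labels of the brown fat libraries name no allele at Rosa26. On chromosome 12 the non-coding Gm37019 (104 and 53.8 against 5.15 and 5.16) and Gm28373 (68.8 and 35.5 against 1.03 and 4.13) fell together with Tmem251, a lysosomal trafficking gene (563 and 531 against 287 and 272). Beside Adra1a the lincRNA Gm10032 also fell, from 549 and 868 to 63.8 and 76.35 (log2 change -3.29 ± 0.26, adjusted p = 0.00229, limma).

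Immune, matrix and cell type markers gave few calls, where over all genes 1.00% rose and 0.677% fell. Of 27 tested inflammatory cytokines and NF-kB targets 1 rose, the eosinophil chemokine Ccl11 (379 and 297 against 714 and 831, adjusted p = 0.0327, limma). Of the 27, 24 had a positive log2 change (50.6% of all genes), and the median was 0.65. Both AKO libraries lay above both controls in 12 of them and below both in 0 (25.1% and 24.9% of all genes). In limma 7 were higher and 0 lower at an unadjusted p below 0.05 (8.64% and 9.08% of all genes). Ccl2 was at 119 and 329 in control and 462 and 852 in AKO (adjusted p = 0.142, limma). Of 34 interferon-stimulated genes and 29 nucleic acid sensors 0 were called by limma or edgeR, and the medians were 0.28 and 0.21. In limma 2 and 1 of them were higher at an unadjusted p below 0.05 (8.64% of all genes). Of 19 p53 targets 0 were called by limma or edgeR. At an unadjusted p below 0.05 in limma 4 of these were higher and 2 lower (8.64% and 9.08% of all genes). Of 25 integrated stress response genes 1 rose, the serine synthesis enzyme Psph (263 and 248 against 569 and 520, adjusted p = 0.0314, limma). Of 29 cell cycle genes 1 rose, the mitotic kinase Plk1 (12.8 and 10.1 against 87.5 and 66.0, adjusted p = 0.0265, limma). At an unadjusted p below 0.05 in limma 4 and 3 of these lists were higher and 3 and 0 lower (8.64% and 9.08% of all genes). A single call gives no result about either list. Of 42 collagen and matrix genes 1 rose, Ctgf (164 and 124 against 400 and 390), with a median of 0.19. A positive log2 change was seen in 34 of the 42 (50.6% of all genes). Both AKO libraries lay above both controls in 14 and below both in 2 (25.1% and 24.9% of all genes). In limma 12 of the matrix genes were higher and 0 lower at an unadjusted p below 0.05 (8.64% and 9.08% of all genes). Of 15 fibroblast and preadipocyte markers 2 rose, Pi16 (63.3 and 36.5 against 229 and 562) and Pdpn (10.1 and 17.3 against 60.7 and 80.5), with a median of 0.41. Of the 15, 14 had a positive log2 change (50.6% of all genes). Both AKO libraries lay above both controls in 9 and below both in 0 (25.1% and 24.9% of all genes). In limma 6 were higher at an unadjusted p below 0.05 (8.64% of all genes). The summed level of the 15 markers was 11378 to 12863 in control and 12164 to 16871 in AKO, and all 15 passed the filter. Macrophage markers had 1 call of 14, Cd14 (493 and 529 against 1005 and 981), with summed levels of 4030 to 6078 in control and 5176 to 6058 in AKO. Endothelial (12 tested), mural (10), T and NK cell (11) and erythroid (5) markers had 0 calls by limma or edgeR, and at an unadjusted p below 0.05 in limma 0, 2, 0 and 2 of them were higher (8.64% of all genes) and 0, 0, 1 and 0 lower. The summed level of erythroid markers was 8234 to 9531 in control and 12941 to 13547 in AKO. Their part in the results was not tested.

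The cultured brown adipocytes of the series give a second set of values for the called genes, as a description without a test. Floxed cells with an inducible Cre were treated with 4-hydroxytamoxifen (4-OHT) or its vehicle ethanol (ETOH), 1 library each, and other cells received a control siRNA (1 library) or an siRNA against Setdb1 (2 libraries). Of the 145 risers 110 were measured in the 4-OHT pair, with a median log2 ratio of 0.21. With 4-OHT 75 (68.2%) were higher, where 42.9% of all measured genes were. At least 2-fold higher were 27 of the 110, and 89 of all 12480 measured genes. Of the 98 fallers 83 were measured, with a median of -0.10 and 32.5% higher. In the siRNA cells 102 risers were measured, with medians of 0.10 and 0.15 in the 2 knockdown libraries. Of these 53 (52.0%) were above control in both, where 34.5% of all genes were. At least 2-fold higher in both were 5 of the 102, and 13 of all 11547 measured genes. Of the 82 fallers measured in the siRNA cells, with medians of -0.02 and -0.03, 32 (39.0%) were above control in both. At least 2-fold lower in both were 0 of these 82.

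Some risers of tissue were also higher in the 4-OHT treated cells and others were not. Setdb1 itself was at 1070 counts with ETOH and 620 with 4-OHT, a log2 ratio of -0.79, where the log2 change in tissue was -1.42. In the siRNA cells it was at 784 normalised counts with the control siRNA and 371 and 398 with Setdb1 siRNA. Ighm went from 67 counts with ETOH to 1311 with 4-OHT, Tnfrsf22 from 90 to 2029 and Gm15287 from 0 to 1729. Mbd1 went from 1734 to 8746 and Ermp1 from 2462 to 11380. In the siRNA cells Mbd1 was at 610 normalised counts with the control siRNA and 616 and 658 with Setdb1 siRNA, and Ermp1 at 900 against 958 and 1242. Tnfrsf22 was at 69.1 against 161 and 253, and Ighm at 842 against 1392 and 1073. Gm15287 had a value in 1 Setdb1 siRNA library, 1.02 normalised counts. Library totals of the 4-OHT pair were 29911734 and 30176359, so these counts compare almost directly. Pcdh19 had 3596 and 3776 counts, Tusc3 1343 and 1076, Ube2ql1 25 and 17, and Tex19.1 2 and 7, close to level or near silence in both. Among the fallers of tissue, Ntrk2 was lower with 4-OHT (306 and 92 counts), Neat1 was at 19436 and 15966, and Gt(ROSA)26Sor was higher, at 6 and 129. In the labels those cells carry their Cre at Rosa26.

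**Figure D5:**
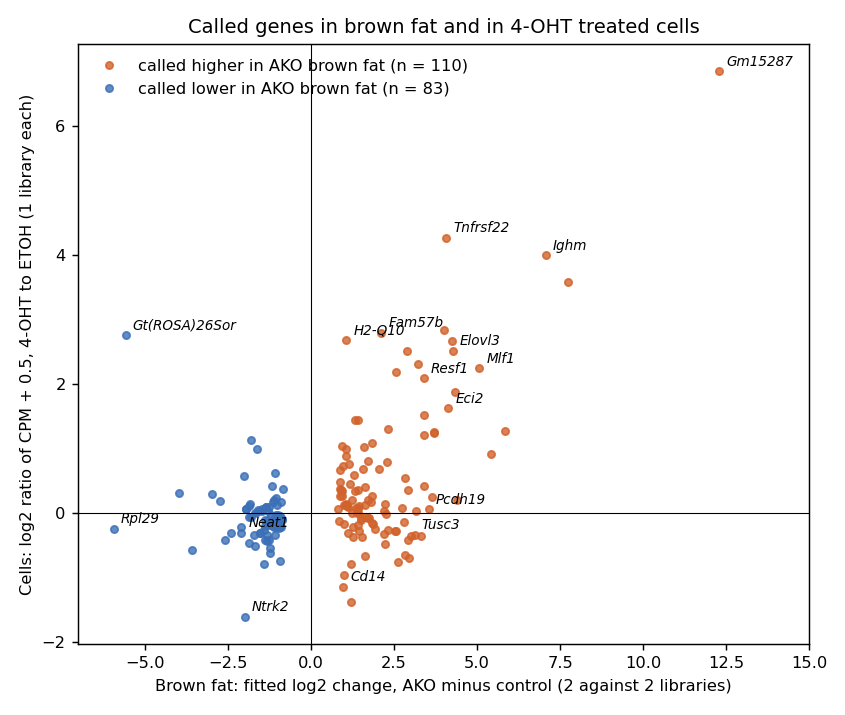
Log2 ratio of CPM (counts scaled to the library total, plus 0.5) between the 4-OHT and ETOH libraries (vertical axis, 1 library each) against the fitted log2 change in brown fat (horizontal axis, 2 against 2 libraries) for 110 genes called higher and 83 called lower in brown fat. Ighm, Tnfrsf22 and Gm15287 lie high on both axes, Pcdh19 and Tusc3 lie near 0 on the vertical axis, and Gt(ROSA)26Sor is low in tissue and high in cells.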

How the data were processed

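RNA-seq of brown adipose tissue was analysed in 2 control and 2 AKO libraries, with 15979479 to 16940622 reads each. Per the labels, polyadenylated RNA was enriched and libraries were made with a NEBNext Ultra II kit. Tools listed by the submitters' processing notes are STAR 2.7.10a, Trimmomatic 0.39, DESeq2 1.36.0 and featureCounts 2.0.3, on build GRCm38. Strand setting, annotation release and handling of multi-mapping reads are not given in the sources used here. The deposited brown fat table and the siRNA tables hold a signal, the read count scaled by the authors with 1 factor per library; the 4-OHT table gives each gene a raw count, as deposited. Whole reads were recovered from the brown fat signal: 100% of values fell no further than 0.05 reads from an integer.

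Of 22721 genes, 22700 matched GENCODE M21 (GRCm38). Genes with at least 10 normalised counts in 2 of the 4 libraries were tested with limma 3.58.1 (R 4.3.3; lmFit, eBayes with trend) on log2(normalised count + 1), 2 residual degrees of freedom, with Benjamini-Hochberg adjustment over all 14466 genes and calls below 0.05. The fit was tested on simulated data. The alternatives were edgeR 4.0.16 and DESeq2 1.42.0 on recovered reads, TMM scaling, other pseudocounts and filters, each library left out, and a replicate block. Neighbours are called genes whose bodies lie at most 100 kb apart. For cells, genes needed at least 50 counts in 1 library; the 4-OHT ratio uses CPM + 0.5 and the siRNA ratio normalised counts + 5. No pair of brown fat libraries held identical reads.

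Named genes are Setdb1; the 12 called genes with the largest gain and the 12 with the largest loss of normalised counts; protein-coding called genes ranked 11 to 22 by log2 change in each direction; genes without a control read; and members of the lists. Members and lists were chosen with earlier results of these data known, and other named genes after their values were seen.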

Additional observations from a re-analysis of the deposited data

How the results depend on the processing

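Against 145 genes higher and 98 lower, DESeq2 called 364 and 287 and the fit without a filter on low values 11 and 0, while edgeR called 148 and 102, TMM scaling 135 and 87, and pseudocounts of 0.5 and 5 gave 135 and 92, and 159 and 106. A filter of 50 gave 128 and 93. Leaving out 1 library gave 22 to 98 genes higher and 0 to 59 lower; the lone library is then assumed to vary like the other group. Setdb1 kept its direction at -1.56 to -1.28 in these fits and lost its call without control library 1 (-1.45), without control library 2 (-1.39) and without a filter (-1.42). No called gene named by rule changed direction; among genes not called some did, such as Acta1 at 0.01, with -1.45 without control library 1 and 1.47 without control library 2. Of the 70 called genes that the naming rule covers, 11 were called in all 4 leave-one-out fits (Ptgds, Mlf1 and Ube2ql1, also called in all 4, are outside it), and 60 lost their call without the filter.

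With the replicate block 181 genes were higher and 118 lower. Deviations of same-numbered libraries correlated at -0.015, so the numbers were not taken to pair the libraries, and 2 pairs cannot show pairing. Within 50 kb 22 risers and 10 fallers had a called neighbour, and within 500 kb 35 and 24. With 2 libraries a group, 131 of 145 and 82 of 98 calls were changes of at least 2-fold. Depth limits genes with few reads most.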
